A study of Mus musculus with 16 samples.

Results

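The respiratory chain of the mitochondrial inner membrane is described here through its subunit genes in cells washed from the airways of mice, after bleomycin and after saline. The genes were taken from the count table by 1 rule: protein-coding rows that lie on the mitochondrial chromosome or whose symbol names a subunit of complex I (Nduf followed by a, b, c, s or v and a digit), complex II (Sdha to Sdhd), complex III (Uqcr), complex IV (Cox4 to Cox8) or complex V (Atp5). The rule found 98 of 54532 rows, 85 of them encoded in the nucleus and 13 in the mitochondrial genome. The nuclear genes divide into 37 of complex I, 4 of complex II, 8 of complex III, 18 of complex IV and 18 of complex V, and the mitochondrial genes into 7 of complex I, 1 of complex III, 3 of complex IV and 2 of complex V. RNA was sequenced from bronchoalveolar lavage cells of mice (strain C57BL/6 in the design text and C56BL/6J in the sample labels) aged 8 to 10 weeks, 14 days into treatment, in 4 groups of 4 libraries: bleomycin males (C33, C65, C66, C67), bleomycin females (C49, C50, C68, C69), saline males (C70 to C73) and saline females (C74 to C77). Bleomycin, a DNA-damaging drug used to injure the mouse lung, was given by the oropharyngeal route at 4 U per kg of body weight, and the other mice received saline by the same route. No genetic change is named for any group. Values per library follow the order of the codes above.

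Complexes I and II take electrons from NADH and succinate, complex III passes them to cytochrome c, complex IV gives them to oxygen, and complex V uses the proton gradient that complexes I, III and IV build to make ATP. Complex II is built from nuclear genes alone. The others mix subunits from both genomes: the mitochondrial genome holds hydrophobic membrane subunits, transcribed as long polycistronic RNAs by a dedicated polymerase, while the nuclear subunits are transcribed gene by gene and imported. Macrophages, the main lavage cells of a healthy lung, are known to change their use of this chain when they are activated or recruited from blood.

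The libraries held 21240382 to 24225885 counts in bleomycin males and 18871879 to 24567609 in bleomycin females, against 16471022 to 19207944 in saline males and 16385784 to 21393539 in saline females. Levels of single genes are CPM, counts scaled to a common library size with TMM factors, which correct library totals for composition. Fold changes are log2 values from 1 edgeR quasi-likelihood fit of all 16 libraries, given with their approximate standard error (SE), and values in parentheses after CPM levels are such fold changes averaged over the sexes. Calls rest on an adjusted p under 0.05, with the adjustment over the 15257 genes that passed the filter on low counts. The labels do not say that each library came from its own animal, so the p-values measure the spread between these libraries. The makeup of the lavage cells differed as well. All 10 markers of monocyte-derived macrophages were higher after bleomycin. Their summed level was 18923 to 27993 CPM in bleomycin males and 12839 to 22769.9 CPM in bleomycin females, against 448 to 619.5 CPM in saline males and 433 to 523 CPM in saline females. Of 10 markers of alveolar macrophages 8 were lower (summed 11787 to 19848 and 11700.5 to 24481 CPM in bleomycin males and females, against 17712 to 19567 and 23426 to 26547 CPM in saline males and females). Most of that sum was Chil3, which was not called (9121 to 20704 CPM in bleomycin and 12405 to 20882 CPM in saline libraries). Of 10 lymphocyte markers 9 were higher and Cd2 was lower (summed 279 to 556 and 260.3 to 426 CPM in bleomycin males and females, against 259.6 to 273 and 239 to 269 CPM in saline males and females). The saline sum was nearly all Cd2 (237 to 272 CPM in saline and 100 to 158 CPM in bleomycin libraries). None of the other markers exceeded 1.03 CPM (Thy1) in a saline library, and their log2 fold changes were 6.01 (Ms4a1) to 9.90 (Cd79b). Of the 6 neutrophil markers tested 5 were higher (156 to 192 and 153 to 181 CPM, against 35.6 to 45.1 and 48.7 to 67.8 CPM). Ly6g, the marker that defines neutrophils, had 0 counts in every saline library and at most 0.0496 CPM in a bleomycin library. Epithelial markers were split, 7 higher and 2 lower of 9 (251 to 312 and 185 to 404 CPM, against 690.3 to 705 and 642 to 782 CPM). The saline sum was mostly the 2 lower ones, Krt19 (521 to 650 CPM) and Epcam (88.4 to 147 CPM). None of the 7 higher ones exceeded 13.2 CPM (Scgb1a1) in a saline library. The 5 red cell genes were all called higher averaged over the sexes and in males, and 0 of 5 in females by edgeR, with 0 at an unadjusted p below 0.05. Their sum was 67.3 to 6018 CPM in bleomycin males (C65 highest) and 176 to 1037 CPM in bleomycin females, against 7.23 to 167 CPM in saline males and 7.52 to 440.5 CPM in saline females. Markers of heart and skeletal muscle, whose cells carry their own subunit isoforms, summed to at most 3.46 CPM in any library. Of these 8, 3 were at 0 in every saline library and 2 were tested, and both were called higher (Actn2 6.05 ± 0.69 (SE), adjusted p = 1.64e-06; Tnni3 0.92 ± 0.38 (SE), adjusted p = 0.042). Of 6 proliferation genes 0 rose and 2 fell. The part of cell makeup in the results below was not tested, and in these bulk samples fewer cells of a type and less RNA per cell cannot be told apart.

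Respiratory chain transcripts were mostly higher after bleomycin, in both genomes, and by more in the mitochondrial one. Of the 98 genes, 91 passed the filter, 79 nuclear and 12 mitochondrial. Averaged over the sexes, 52 nuclear subunits rose and 2 fell of 79, with a median log2 fold change of 0.32, and 11 of 12 mitochondrial subunits rose and 0 fell, with a median of 0.64. Over all genes tested, 34.7% were called higher and 28.8% lower, with a median of 0.01. With library totals in place of TMM scaling, the split among nuclear subunits was 29 higher and 10 lower (median 0.10) and among mitochondrial ones 10 higher and 0 lower (median 0.43), and the median over all genes was -0.20. Over all genes tested, 24.4% were then called higher and 45.9% lower, so 34.7% of called genes were higher, against 54.6% with TMM scaling. Relative to the median gene, the median nuclear subunit was higher by 0.30 and the median mitochondrial subunit by 0.63 on the log2 scale, with either scaling. A change of scaling shifts all genes by nearly the same amount, so this agreement is no check on the scaling. The TMM factors were 0.864 to 1.03 in bleomycin and 1.05 to 1.10 in saline libraries, without overlap. The rises of 5 nuclear subunits (Ndufs3, a core subunit of complex I, and Sdha, Uqcrc1, Cox7b and Atp5a1) changed sign with library totals, to between -0.0746 and -0.00694. Every bleomycin library lay above every saline library for 8 of 79 nuclear and 8 of 12 mitochondrial subunits, and for 19.2% of all genes tested, and every bleomycin library lay below every saline library for 1 nuclear subunit, Cox6b2, and for 10.3% of all genes tested. The 7 genes that did not pass were mt-Atp8, Cox4i2, Cox7b2, Cox8b, Cox8c, Ndufa4l2 and a second Atp5o row, all at or near 0 in every group.

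**Figure D1:**
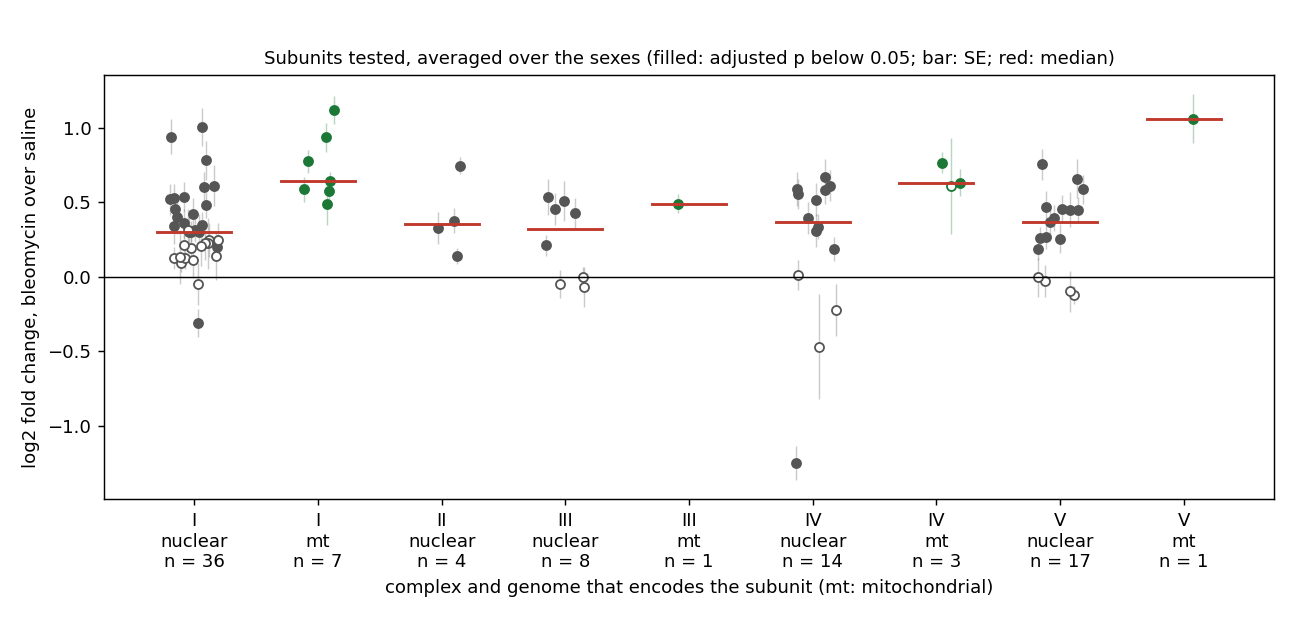
Log2 fold change, bleomycin over saline averaged over the sexes, of the 91 subunits tested, by complex and by the genome that encodes them. Filled points were called, bars are SE and red lines are medians; the mitochondrial medians (0.64, 0.49, 0.63 and 1.06 for complexes I, III, IV and V) lie above the nuclear ones (0.30, 0.32, 0.37 and 0.36), and Cox6b2 is the lowest point at -1.25.

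The 7 mitochondrially encoded subunits with the most reads (mt-Co1, mt-Cytb, mt-Nd1, mt-Nd5, mt-Nd4, mt-Nd2 and mt-Nd6) all rose. mt-Co1, the catalytic subunit of complex IV, had the most counts of the set: 11785, 11232, 12456 and 12476 CPM in bleomycin males and 9601, 9938, 11941 and 11114 CPM in bleomycin females. In saline libraries mt-Co1 had 6107, 7237, 5874 and 5783 CPM in males and 7908, 6783, 6488 and 7124 CPM in females. No bleomycin library overlapped a saline library, and the log2 fold change was 0.76 ± 0.07 (SE), adjusted p = 3.74e-08. mt-Nd1, which forms part of the quinone site of complex I, had 2711, 3087, 2854 and 2677 CPM in bleomycin males and 2194, 2133, 2622 and 2608 CPM in bleomycin females. In saline libraries mt-Nd1 had 1420.2, 1774, 1322 and 1365 CPM in males and 1731, 1517, 1491 and 1569.7 CPM in females, again without overlap (0.77 ± 0.07 (SE), adjusted p = 4.39e-08). mt-Cytb, the haem-bearing core of complex III and its only mitochondrial subunit, had 2638 to 3258 CPM (median 3090.2) in bleomycin libraries, against 1844 to 2495 CPM (median 2151) in saline libraries (0.49 ± 0.06 (SE), adjusted p = 2.32e-06). Its rise was the smallest of the 7, and the groups did not overlap.

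mt-Nd6 had the largest fold change of any mitochondrial subunit averaged over the sexes. This complex I membrane subunit is encoded on the strand opposite to the other mitochondrial protein genes, and it had 663, 939.6, 800.1 and 669 CPM in bleomycin males and 566, 559.6, 726 and 758 CPM in bleomycin females. In saline libraries mt-Nd6 had 295, 371, 274 and 296 CPM in males and 395, 337, 324 and 326 CPM in females (1.11 ± 0.09 (SE), adjusted p = 7.72e-09). All bleomycin libraries were above all saline libraries, with C65 highest. The row of mt-Nd6 overlaps that of mt-Nd5 by 14 bases on the opposite strand, and the strand setting of the counting is not given in the sources used here, so the share of its reads that comes from the other strand cannot be told apart. mt-Nd5, mt-Nd4 and mt-Nd2, the proton-pumping subunits of complex I, had log2 fold changes of 0.64 ± 0.06, 0.57 ± 0.08 and 0.59 ± 0.08 (SE), all called. Of the 100-base windows of mt-Nd4, 60.8% also occur in the chromosome 1 pseudogene Gm28439, identical over 876 bases, so reads there cannot be assigned to mt-Nd4 or its copy. The ribosomal RNAs of the same genome, which are not members, were also higher (mt-Rnr2 1.22 ± 0.06 (SE), adjusted p = 5.02e-12; mt-Rnr1 1.09 ± 0.10 (SE), adjusted p = 2.09e-08).

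**Figure D2:**
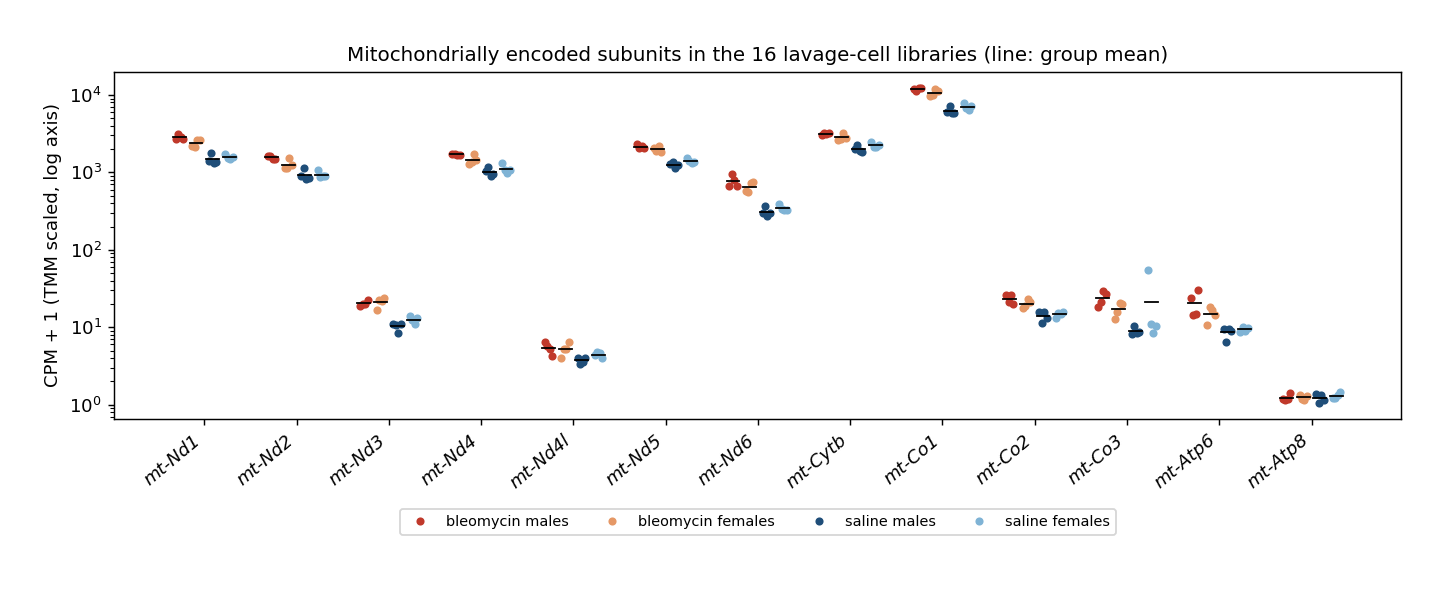
CPM plus 1 on a log axis of the 13 mitochondrially encoded subunits, 1 point per library and a line at each group mean. The 7 genes with the most reads sit far above the 6 others, and the saline female library C74 stands apart for mt-Co3 at 54.1 CPM.

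Another 5 mitochondrial genes had few reads, and their sequence is present again in the nuclear genome. Of the 100-base windows of mt-Co2, mt-Co3, mt-Atp6, mt-Nd3 and mt-Nd4l, 99.5%, 99.9%, 99.5%, 97.6% and 98.5% also occur in another annotated transcript of GENCODE M21, in each case a pseudogene within chr1:24611535-24616197 (GRCm38). Over their aligned lengths, mt-Co2 (681 bases), mt-Co3 (783 bases), mt-Atp6 (678 bases) and mt-Nd4l (294 bases) had 0 mismatches to Gm28661, Gm28437, Gm10925 and Gm10222. mt-Nd3 and Gm28438 differed at 1 of 345 bases, T3C counted from the first base of the mt-Nd3 transcript. The first 33 bases of both are shown because this base is all that separates them, and it stands in capitals.
mt-Nd3, chrMT:9459-9491, + strand: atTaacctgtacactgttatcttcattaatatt
Gm28438, chr1:24613087-24613119, - strand: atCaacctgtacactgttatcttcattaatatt

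Per length, mt-Co2 stood at a median of 28.7 FPKM in bleomycin and 20.4 FPKM in saline libraries, while mt-Co1, of the same complex and with 30.8% of its windows shared, stood at 7356 and 4268 FPKM. In these 5 genes, and in the shared stretches of mt-Nd4 and mt-Co1, reads from the mitochondrion and from chromosome 1 cannot be told apart. With that limit, mt-Co2, which carries the first copper centre of complex IV, had 16.9 to 25.03 CPM (median 20.04) in bleomycin libraries, against 10.5 to 14.8 CPM (median 14.02) in saline libraries (0.63 ± 0.09 (SE), adjusted p = 9.74e-06), without overlap. mt-Nd3 of complex I had 15.5 to 22.8 CPM (median 19.996) in bleomycin libraries, against 7.40 to 12.8 CPM (median 10.04) in saline libraries (0.93 ± 0.09 (SE), adjusted p = 9.39e-08), also without overlap. mt-Atp6, the proton channel subunit of complex V, had 9.60 to 29.5 CPM (median 14.9) in bleomycin libraries, against 5.55 to 8.997 CPM (median 8.20) in saline libraries (1.06 ± 0.16 (SE), adjusted p = 1.86e-05), and mt-Nd4l had 3.07 to 5.46 CPM (median 4.30) in bleomycin libraries, against 2.40 to 3.78 CPM (median 3.004) in saline libraries (0.49 ± 0.14 (SE), adjusted p = 0.00536). mt-Atp8 had at most 0.454 CPM in any library and was not tested. None of its windows occurs in another annotated transcript, but unannotated sequence was not searched. Whether a nuclear copy, or its overlap of 43 bases with mt-Atp6, lowered its count was not tested, so its low count does not show low expression.

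mt-Co3, the third mitochondrial subunit of complex IV, was the exception among the 12. It had 17.4, 20.2, 28.02 and 25.8 CPM in bleomycin males and 11.8, 14.8, 19.8 and 18.8 CPM in bleomycin females. In saline libraries mt-Co3 had 7.08, 9.49, 7.49 and 7.60 CPM in males and 54.1, 10.2, 7.46 and 9.36 CPM in females. C74 stood far above the other saline females and above every bleomycin library, and the averaged log2 fold change was 0.61 ± 0.32 (SE), adjusted p = 0.105. In females it was -0.31 ± 0.45 (SE, adjusted p = 0.604) with C74 and 0.85 ± 0.20 (SE, adjusted p = 0.00224) without it, so the direction in females rests on that library. In males it was 1.53 ± 0.46 (SE), adjusted p = 0.00946.

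Complex I, the NADH dehydrogenase, has nuclear core subunits, which carry the flavin and the iron-sulphur clusters, and accessory subunits around them. Of 36 nuclear subunits tested 20 rose and 1 fell (median 0.30). Among the 7 core subunits 4 rose and 1 fell, with a median of 0.20, and among 29 accessory subunits 16 rose and 0 fell, with a median of 0.30. The largest nuclear rises of the whole set were those of accessory subunits of the membrane arm. Ndufc1 had 31.7, 42.02, 35.2 and 28.8 CPM in bleomycin males and 19.002, 25.6, 28.9 and 40.4 CPM in bleomycin females. In saline libraries Ndufc1 had 12.97, 18.1, 17.1 and 13.3 CPM in males and 16.8, 14.995, 15.5 and 15.8 CPM in females (1.01 ± 0.13 (SE), adjusted p = 1.72e-06). Ndufb9 had 29.4, 42.2, 38.5 and 31.4 CPM in bleomycin males and 22.2, 25.1, 33.9 and 38.8 CPM in bleomycin females. In saline libraries Ndufb9 had 15.1, 20.5, 16.5 and 14.6 CPM in males and 18.2, 16.5, 15.1 and 19.4 CPM in females (0.94 ± 0.12 (SE), adjusted p = 1.54e-06). In both, every bleomycin library exceeded every saline library, and C49 was the lowest of the bleomycin libraries. The row of Ndufb9 shares 3604 bases with Gm49356 on the same strand, so reads of the pair may have been divided or left out by the counting.

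Ndufa13 (also called GRIM-19) had 43.9 to 91.4 CPM (median 70.4) in bleomycin libraries, against 34.6 to 47.9 CPM (median 42.04) in saline libraries (0.78 ± 0.13 (SE), adjusted p = 3.92e-05), and its row overlaps Yjefn3 on the same strand and Tssk6 on the opposite one. Ndufa7 had 37.03 to 63.9 CPM (median 50.7) in bleomycin libraries, against 30.2 to 38.2 CPM (median 32.3) in saline libraries (0.60 ± 0.10 (SE), adjusted p = 3.18e-05). Both rose although their ranges overlapped. Ndufb3, the complex I subunit of largest p, had 19.4 to 37.1 CPM (median 26.5) in bleomycin libraries, against 17.6 to 35.7 CPM (median 28.7) in saline libraries (-0.05 ± 0.14 (SE), adjusted p = 0.793). The flavoprotein pair at the tip of the NADH arm, named after their values were seen, moved apart. Ndufv1, which binds NADH and the flavin, had 60.1, 77.8, 70.7 and 61.6 CPM in bleomycin males and 55.6, 65.8, 79.1 and 90.1 CPM in bleomycin females. In saline libraries Ndufv1 had 86.5, 70.1, 88.01 and 88.8 CPM in males and 76.4, 92.6, 93.3 and 98.5 CPM in females. It was the only complex I subunit called lower (-0.31 ± 0.09 (SE), adjusted p = 0.00727), and its ranges overlapped, with C69 above 5 saline libraries. Ndufv2, which carries an iron-sulphur cluster beside it, had 62.5 to 103 CPM (median 81.9) in bleomycin libraries, against 47.96 to 62.2 CPM (median 57.7) in saline libraries and rose without overlap (0.53 ± 0.09 (SE), adjusted p = 7.96e-05).

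In complex II, succinate dehydrogenase, which also belongs to the citric acid cycle, all 4 subunits rose. Sdhb, the iron-sulphur subunit, had the smallest p of any nuclear subunit: 115, 129, 119.8 and 121 CPM in bleomycin males and 97.5, 113, 127 and 133 CPM in bleomycin females. In saline libraries Sdhb had 67.2, 69.5, 72.7 and 66.3 CPM in males and 69.9, 76.3, 76.4 and 71.6 CPM in females (0.75 ± 0.06 (SE), adjusted p = 3.08e-09). The groups did not overlap, and the lowest bleomycin value was that of C49. Sdha, the flavoprotein that oxidises succinate, had 259 to 329.7 CPM (median 304) in bleomycin libraries, against 258 to 284 CPM (median 274) in saline libraries (0.14 ± 0.05 (SE), adjusted p = 0.0249), a small rise whose sign turned with library totals (-0.0746). The membrane anchors Sdhc and Sdhd had log2 fold changes of 0.38 ± 0.08 (SE), adjusted p = 0.000796 and 0.33 ± 0.11 (SE), adjusted p = 0.0115.

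In complex III, the cytochrome bc1 complex, 5 of 8 nuclear subunits rose and 0 fell (median 0.32), and the rises were in small supernumerary subunits and in Uqcrc1. Uqcrh, the acidic hinge protein at the cytochrome c site, had 58.7 to 114 CPM (median 83.3) in bleomycin libraries, against 49.8 to 67.4 CPM (median 57.4) in saline libraries (0.54 ± 0.12 (SE), adjusted p = 0.000874). Uqcrq had 0.51 ± 0.13, Uqcr10 0.45 ± 0.11 and Uqcrb 0.43 ± 0.10 as log2 fold changes (SE), all called. Uqcrc2, a core protein facing the matrix, had 84.2 to 119 CPM (median 105) in bleomycin libraries, against 88.95 to 122 CPM (median 107) in saline libraries, with a log2 fold change of 0.00 ± 0.06 (SE), adjusted p = 0.983. With library totals it was called lower (-0.22, adjusted p = 0.000629). The Rieske iron-sulphur protein Uqcrfs1 (-0.05 ± 0.09 (SE), adjusted p = 0.654) and Uqcr11 (-0.07 ± 0.13 (SE), adjusted p = 0.673), both named after their values were seen, were not called. mt-Cytb, the mitochondrial partner, stood at 0.49.

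In complex IV, cytochrome c oxidase, 10 of 14 nuclear subunits tested rose and 1 fell (median 0.37), and the expressed forms were those of non-muscle tissue. Cox5a had 97.8, 145, 122 and 117 CPM in bleomycin males and 89.4, 109, 129.7 and 147 CPM in bleomycin females. In saline libraries Cox5a had 70.8, 80.7, 82.9 and 74.9 CPM in males and 85.6, 84.5, 73.5 and 87.7 CPM in females (0.58 ± 0.09 (SE), adjusted p = 2.75e-05), without overlap and with C49 again lowest among bleomycin libraries. Cox4i1, the form of subunit 4 found in most tissues, had 265 to 499 CPM (median 366) in bleomycin libraries, against 244 to 293 CPM (median 256) in saline libraries (0.52 ± 0.11 (SE), adjusted p = 0.00047), and Cox8a had 136 to 252 CPM (median 192) in bleomycin libraries, against 115 to 152 CPM (median 128) in saline libraries (0.55 ± 0.10 (SE), adjusted p = 8.4e-05). The row of Cox4i1 shares 5986 bases with Gm20388 on the same strand and 352 with Emc8 on the opposite one. Cox7a2 rose by 0.61 ± 0.10 (SE), adjusted p = 5.29e-05 and Cox7a2l, a factor that joins complexes III and IV, by 0.34 ± 0.08 (SE), adjusted p = 0.00195. Cox6a1 rose by 0.39 ± 0.11 (SE), adjusted p = 0.0033 and Cox7b by 0.19 ± 0.08 (SE), adjusted p = 0.0495, and the sign of Cox7b turned with library totals (-0.0323). Cox5b had 54.03 to 84.8 CPM (median 64.9) in bleomycin libraries, against 49.04 to 77.5 CPM (median 67.6) in saline libraries and a log2 fold change of 0.01 ± 0.10 (SE), adjusted p = 0.91.

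The pair Cox6b1 and Cox6b2 went in opposite directions. Cox6b1, the ubiquitous form of a subunit at the interface of the cytochrome oxidase dimer, had 110.2, 164, 143 and 134 CPM in bleomycin males and 93.6, 126, 159 and 195 CPM in bleomycin females. In saline libraries Cox6b1 had 88.3, 97.6, 91.1 and 85.4 CPM in males and 99.1, 97.01, 95.9 and 93.7 CPM in females (0.59 ± 0.11 (SE), adjusted p = 0.000177). Cox6b2, known as the testis form, had 12.8, 12.1, 11.9 and 13.95 CPM in bleomycin males and 9.45, 10.003, 15.8 and 16.9 CPM in bleomycin females. In saline libraries Cox6b2 had 33.01, 28.4, 40.3 and 34.1 CPM in males and 23.8, 28.7, 28.5 and 28.03 CPM in females (-1.25 ± 0.11 (SE), adjusted p = 2.48e-08). All bleomycin libraries lay below all saline libraries for Cox6b2, and the ranges overlapped for Cox6b1, through C49. The fold change of Cox6b2 was -1.42 ± 0.16 in males and -1.07 ± 0.16 in females (SE, both called). Its row overlaps no other row of the table. The muscle forms were near absent: Cox7a1 had 1.46 to 3.01 CPM (median 1.91) in bleomycin libraries, against 1.66 to 2.94 CPM (median 2.59) in saline libraries (-0.22 ± 0.18 (SE), adjusted p = 0.277) and Cox6a2 had 0.368 to 1.68 CPM (median 0.888) in bleomycin libraries, against 0.114 to 2.22 CPM (median 1.29) in saline libraries (-0.47 ± 0.35 (SE), adjusted p = 0.254). Among the other tissue-specific isoforms, Cox4i2 reached 0.637 CPM and Cox8b 0.195 CPM at most, and Cox7b2 and Cox8c had 0 counts in all 16 libraries.

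Ndufa4, grouped here with complex I by its name and now known as a complex IV subunit, had 60.03 to 119 CPM (median 85.04) in bleomycin libraries, against 61.9 to 82.8 CPM (median 75.003) in saline libraries (0.25 ± 0.11 (SE), adjusted p = 0.0646). Its hypoxia-induced paralogue Ndufa4l2 reached 0.126 CPM at most. A second paralogue, AA467197 (Nmes1, the mouse form of human C15orf48), which takes the place of Ndufa4 in complex IV of inflamed cells, is not a member by the rule. It had 17.1, 33.8, 27.9 and 19.99 CPM in bleomycin males and 16.2, 26.8, 18.9 and 29.6 CPM in bleomycin females. In saline libraries AA467197 had 0.878, 2.23, 1.37 and 0.726 CPM in males and 1.05, 1.22, 0.945 and 1.53 CPM in females (log2 fold change 4.26 ± 0.22 (SE), adjusted p = 7.86e-12). Every bleomycin library was far above every saline library.

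**Figure D3:**
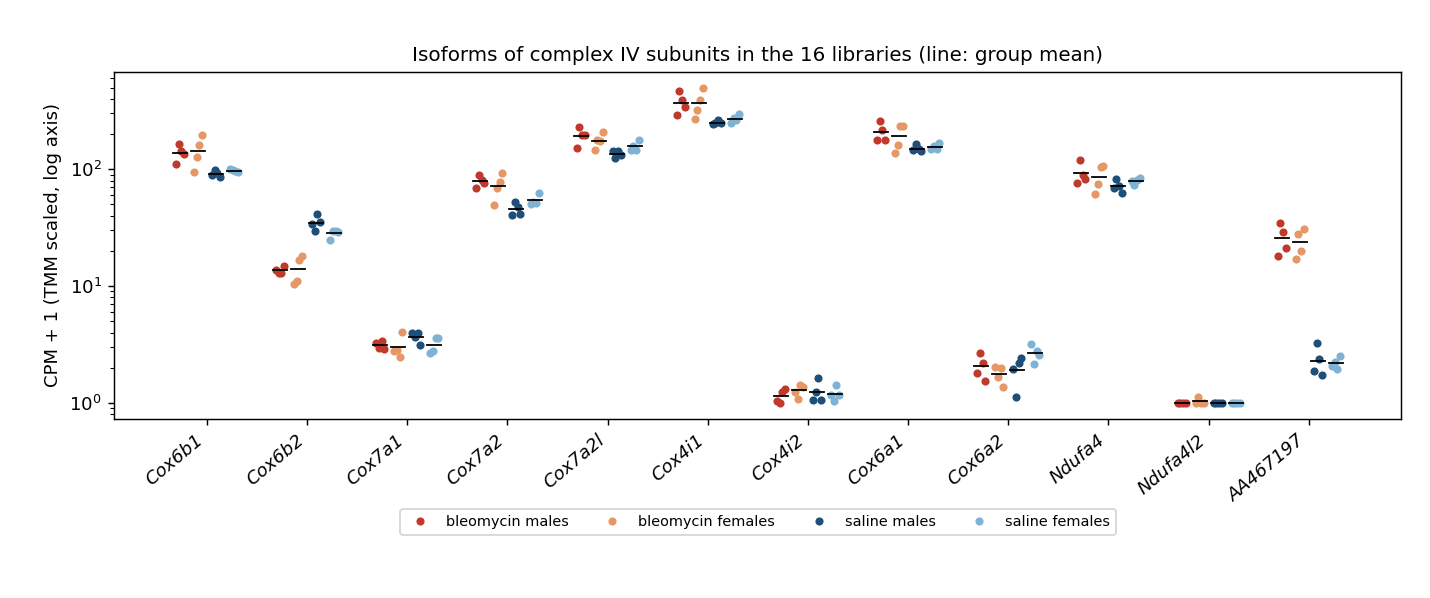
CPM plus 1 on a log axis of isoforms of complex IV subunits, and of Ndufa4 with its paralogues, 1 point per library and a line at each group mean. Cox6b2 lies at 9.45 to 16.9 CPM in bleomycin and 23.8 to 40.3 CPM in saline libraries, AA467197 at 16.2 to 33.8 CPM and 0.726 to 2.23 CPM, and the muscle forms near the floor.

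In complex V, the ATP synthase, 13 of 17 nuclear subunits rose and 0 fell (median 0.36). Atp5j2, subunit f of the membrane part, had 101, 149.6, 122 and 114 CPM in bleomycin males and 86.2, 90.8, 119 and 151 CPM in bleomycin females. In saline libraries Atp5j2 had 59.5, 73.03, 66.9 and 63.5 CPM in males and 74.2, 68.6, 72.4 and 75.2 CPM in females (0.76 ± 0.10 (SE), adjusted p = 4.51e-06), without overlap. Atp5l (subunit g) had 73.2 to 144 CPM (median 102) in bleomycin libraries, against 52.02 to 76.04 CPM (median 68.4) in saline libraries (0.66 ± 0.13 (SE), adjusted p = 0.000256), Atp5j (coupling factor 6) 68.6 to 125 CPM (median 96.9) in bleomycin libraries, against 59.2 to 70.7 CPM (median 65.4) in saline libraries (0.59 ± 0.10 (SE), adjusted p = 4.36e-05), and Atp5h (subunit d) 91.01 to 153 CPM (median 126) in bleomycin libraries, against 82.7 to 106 CPM (median 90.7) in saline libraries (0.45 ± 0.09 (SE), adjusted p = 0.00024). Atp5s (coupling factor B) had the largest p of the complex, 0.00 ± 0.13 (SE), adjusted p = 0.983. Of the 3 genes that encode the same mature c-ring subunit, Atp5g1 (0.45 ± 0.12 (SE), adjusted p = 0.0024) and Atp5g2 (0.36 ± 0.11 (SE), adjusted p = 0.00744) rose, and Atp5g3, which had the highest level of the 3 per length in saline libraries (66.6 FPKM, against 46.8 for Atp5g2 and 7.99 for Atp5g1), had -0.03 ± 0.11 (SE), adjusted p = 0.819. Atp5g2 shares 34.7% of its windows with other annotated transcripts. The catalytic head, named after its values were seen, was near level: Atp5b (beta) had 562 to 759.8 CPM (median 683) in bleomycin libraries, against 721 to 799 CPM (median 743) in saline libraries (-0.12 ± 0.06 (SE), adjusted p = 0.0887) and Atp5a1 (alpha) had 522 to 766 CPM (median 662) in bleomycin libraries, against 532 to 617 CPM (median 567) in saline libraries (0.19 ± 0.07 (SE), adjusted p = 0.0305, called).

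Set side by side by complex, the mitochondrial subunits gained on the nuclear ones in each complex that has both. The measure was the mean of log2(CPM + 1) over the mitochondrial subunits tested minus that over the nuclear subunits, per library, and it was given no test because it is a score over chosen members. For complex I it was 3.13 ± 0.17 in bleomycin males and 3.01 ± 0.20 in bleomycin females, against 2.66 ± 0.16 in saline males and 2.70 ± 0.20 in saline females (SD, n = 4 each). For complex III it was 5.29 ± 0.21 and 5.15 ± 0.29 in bleomycin males and females, against 4.94 ± 0.15 and 4.98 ± 0.18 in saline males and females. The difference, bleomycin minus saline, was 0.39 for complex I and 0.26 for complex III, beside a spread within groups of 0.18 and 0.21. For complex IV it was 1.54 ± 0.24 and 1.34 ± 0.14 in bleomycin males and females, against 0.81 ± 0.08 and 1.07 ± 0.50 in saline males and females, the last with C74 at 1.80, and the difference was 0.50 with a spread of 0.29. For complex V, where mt-Atp6 alone stands for the mitochondrial side, it was -2.29 ± 0.69 and -2.70 ± 0.33 in bleomycin males and females, against -3.15 ± 0.25 and -3.11 ± 0.09 in saline males and females, and the difference was 0.64 with a spread of 0.40. Ranges of bleomycin and saline libraries overlapped in every complex. Complex III rests on mt-Cytb alone. The limit from nuclear copies holds for mt-Atp6, for mt-Co2 and mt-Co3 of complex IV, and for mt-Nd3 and mt-Nd4l of complex I. It also holds for the shared stretches of mt-Co1 and mt-Nd4. The negative levels of complex V therefore do not show that its mitochondrial RNA is below its nuclear RNA.

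**Figure D4:**
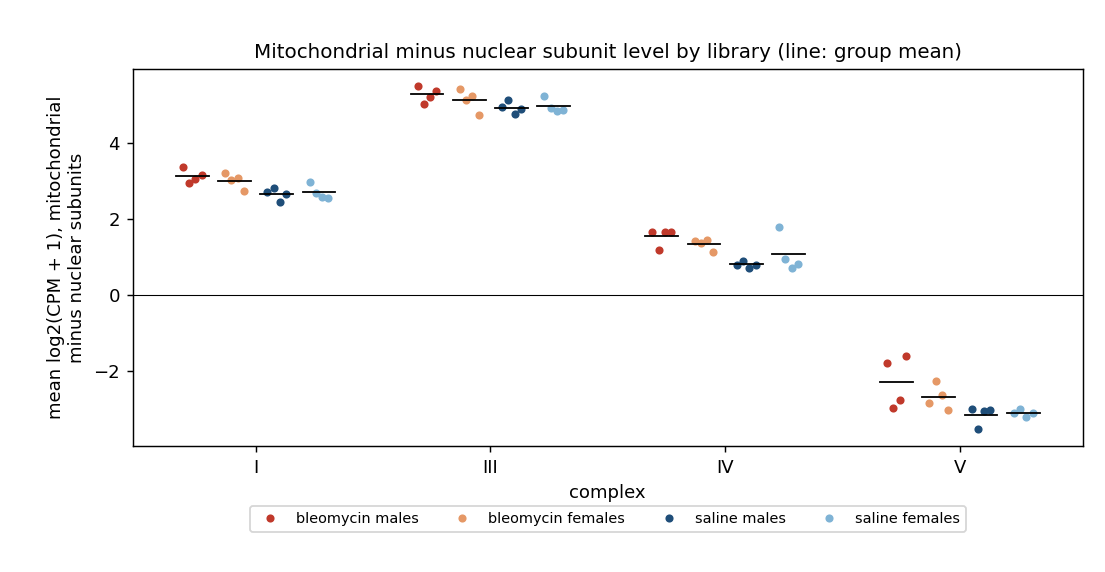
Mean log2(CPM + 1) of the mitochondrial minus the nuclear subunits of each complex, 1 point per library and a line at each group mean. Bleomycin group means lie above saline group means in complexes I, III, IV and V, and the ranges of bleomycin and saline libraries overlap in each. The mitochondrial side is mt-Cytb alone in complex III and mt-Atp6, a gene with a nuclear copy, alone in complex V.

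As a share of all counts, mitochondrial protein-coding genes took 1.89 to 2.27% in bleomycin libraries and 1.33 to 1.74% in saline libraries, without overlap. The nuclear subunits took 0.6005 to 0.817% in bleomycin libraries and 0.641 to 0.749% in saline libraries, ranges that overlap. Within bleomycin the nuclear share was lowest in C49 (0.6005%) and C33 (0.632%) and highest in C69 (0.817%) and C65 (0.8155%).

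Median fold changes fell with gene length among genes outside the set, and were near level over the length classes among nuclear subunits. Nuclear subunits tested had a median length of 1587 bases, against 4358 bases for all protein-coding genes tested. Protein-coding genes outside the set had a median log2 fold change of 0.30 below 1000 bases, 0.19 from 1000 to 2000 bases, 0.11 from 2000 to 4000 bases and -0.01 above. Nuclear subunits in the same classes had medians of 0.32 (20 genes), 0.33 (30 genes), 0.30 (19 genes) and 0.30 (10 genes), close to other genes in the shortest class and above them in the longer ones. The part of length in the rises was not tested.

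Rises outnumbered falls in both sexes. In males 47 nuclear subunits rose and 1 fell of 79 (median 0.38) and 12 of 12 mitochondrial subunits rose (median 0.86), where 31.5% of all genes were called higher and 24.9% lower. In females 25 nuclear subunits rose and 1 fell (median 0.26) and 10 of 12 mitochondrial subunits rose (median 0.50), where 26.7% of all genes were called higher and 17.2% lower. The count of nuclear rises in females depended on single libraries: it was 49 without C49, 15 without C68, 8 without C69, 52 without C33, C49 and C50, whose codes lie apart from the rest, and 9 with library totals. The fold change was larger in males than in females for 69 of 79 nuclear and 12 of 12 mitochondrial subunits, and for 46.4% of all genes tested. Of the subunits called higher averaged over the sexes, it was larger in males for 50 of 52 nuclear and 11 of 11 mitochondrial ones. Over all 5300 genes called higher, the share was 58.8%. mt-Nd6 had 1.31 ± 0.13 in males and 0.92 ± 0.13 in females, and Ndufc1 1.16 ± 0.18 and 0.85 ± 0.18 (SE).

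No subunit passed the test of that difference. In the interaction of bleomycin with sex edgeR called 0 of 91 subunits, where 0.00655% of all genes (1 gene) were called, and 9 subunits had an unadjusted p below 0.05, among them 7 of the 12 mitochondrial ones. The interaction was 0.35 ± 0.15 for mt-Nd1 (SE, adjusted p = 0.613) and 0.38 ± 0.12 for Uqcrc2 (adjusted p = 0.564). DESeq2 and limma voom also called 0 in the interaction. Male against female within bleomycin, edgeR called 0 of 91 subunits beside 0.059% of all genes, and DESeq2 and limma voom called 0. At an unadjusted p below 0.05 by edgeR were 4 of 91 subunits, all mitochondrial, beside 605 of 15257 genes. The median male minus female difference within bleomycin was 0.23 for the mitochondrial subunits. For the nuclear subunits it was 0.03, with 53 of 79 above 0. Within saline edgeR called 0 of 91 beside 0.269% of all genes. At an unadjusted p below 0.05 by edgeR were 4 of 91 subunits, beside 1458 of 15257 genes. The median of the mitochondrial subunits was -0.16 and that of the nuclear ones -0.11, with 8 of 79 nuclear ones above 0. limma voom called 0. DESeq2 called Uqcrc2 lower in saline males than in saline females (-0.32 ± 0.09, SE, adjusted p = 0.031), and edgeR did so without C49 (adjusted p = 0.0368).

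**Figure D5:**
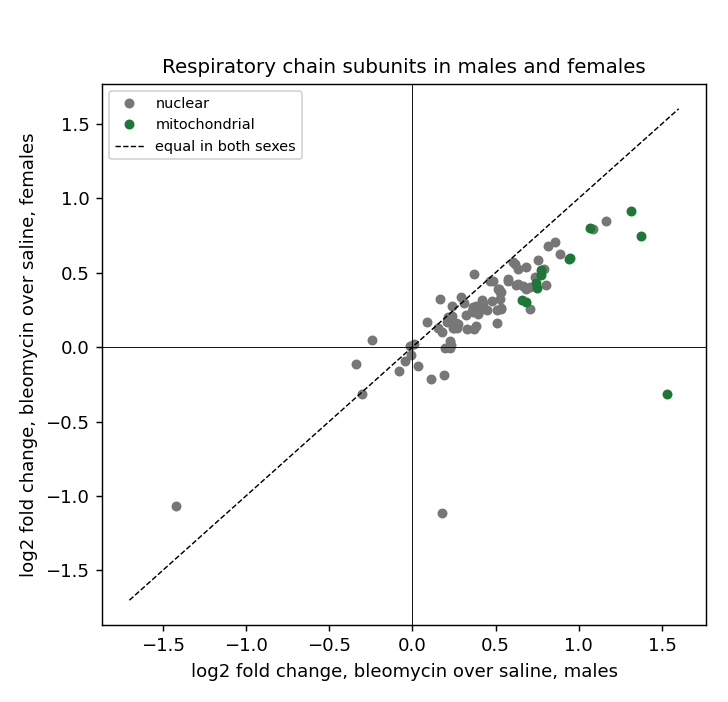
Log2 fold change, bleomycin over saline, of the 91 subunits tested, males on the x axis and females on the y axis, with a dashed line where both are equal. Most points lie below the line (69 of 79 nuclear and 12 of 12 mitochondrial), mt-Co3 stands alone at the right and Cox6b2 at the lower left.

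Genes that build, feed and regulate the chain moved in both directions. The counts for these lists stand beside 34.7% of all genes tested called higher and 28.8% called lower, averaged over the sexes. Assembly factors are proteins that help a complex form without being part of it. Of 14 for complex I, 1 rose and 2 fell (median -0.04): Ndufaf3 (0.30 ± 0.09 (SE), adjusted p = 0.00649) rose, and Ndufaf1 (-0.26 ± 0.09 (SE), adjusted p = 0.0147) and Foxred1 (-0.15 ± 0.05 (SE), adjusted p = 0.0228) fell. Of 4 for complex II, Sdhaf2 rose (0.19 ± 0.06 (SE), adjusted p = 0.0136), and Sdhaf4 (0.21 ± 0.10 (SE), adjusted p = 0.0854) and Sdhaf1 (0.30 ± 0.25 (SE), adjusted p = 0.306) were not called. Of 6 for complex III, 2 rose and 1 fell, namely Uqcc2 (0.58 ± 0.12 (SE), adjusted p = 0.000317), Lyrm7 (0.81 ± 0.30 (SE), adjusted p = 0.0246) and, lower, Bcs1l (-0.25 ± 0.09 (SE), adjusted p = 0.0168). Of 17 tested for complex IV, 5 rose and 1 fell (median 0.13): Cox10 and Cox15, which make haem a, had 0.64 ± 0.06 (SE), adjusted p = 5.14e-08 and 0.31 ± 0.06 (SE), adjusted p = 0.000208, Coa5 had 0.48 ± 0.05 (SE), adjusted p = 1.63e-07, and the copper chaperone Cox17 fell (-0.80 ± 0.22 (SE), adjusted p = 0.00385). Of 3 for complex V, edgeR called 0, and 0 had an unadjusted p below 0.05: Atpaf1 had -0.13 ± 0.09 (SE), adjusted p = 0.204, Tmem70 0.05 ± 0.07 (SE), adjusted p = 0.557 and Atpaf2 0.01 ± 0.07 (SE), adjusted p = 0.883. Among 77 subunits of the mitochondrial ribosome, which translates the 13 mitochondrial messages, 28 rose (36.4%) and 6 fell (7.79%), with a median of 0.12. The share of rises was near that over all genes tested, and the share of falls was below it. The smallest p-values were those of Mrpl52 (1.29 ± 0.12 SE, adjusted p = 1.6e-08), Mrpl45 (0.62 ± 0.08 SE, adjusted p = 3.72e-06) and Mrpl41 (0.73 ± 0.12 SE, adjusted p = 3.02e-05). With library totals the calls were 0 higher and 8 lower for complex I, 0 and 0 for complex II (Sdhaf2 changed sign, to -0.027), 1 and 3 for complex III, 2 and 6 for complex IV, 0 and 3 for complex V, and 12 and 29 for the ribosome, where the rises of Mrpl43 (-0.0112) and Mrps22 (-0.0126) changed sign. Over all genes tested, 24.4% were called higher and 45.9% lower with library totals. Whether these lists differ from the subunits was not tested.

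Among 11 genes of cytochromes and of ubiquinone synthesis, 4 rose and 4 fell. Cyc1, cytochrome c1, a complex III subunit whose symbol the rule does not match, and Cycs, the mobile cytochrome c, rose by 0.22 ± 0.06 (SE), adjusted p = 0.00546 and 0.24 ± 0.08 (SE), adjusted p = 0.0146, while of the ubiquinone synthesis genes Coq7 rose (0.58 ± 0.14 (SE), adjusted p = 0.00145) and Coq2 (-0.26 ± 0.05 (SE), adjusted p = 0.000273) and Coq3 (-0.34 ± 0.09 (SE), adjusted p = 0.00261) fell. Of 18 genes that copy and transcribe mitochondrial DNA, 4 rose and 5 fell (median -0.03). Tfam, which packs the genome and starts transcription, had 27.7 to 38.1 CPM (median 30.7) in bleomycin libraries, against 23.5 to 29.9 CPM (median 27.8) in saline libraries (0.19 ± 0.07 (SE), adjusted p = 0.0193), the polymerase Polrmt had -0.19 ± 0.08 (SE), adjusted p = 0.044, and Polg2, the accessory subunit of the DNA polymerase, had -0.61 ± 0.11 (SE), adjusted p = 9.78e-05. Elac2, which cuts the ends of tRNAs, fell (-0.22 ± 0.06 (SE), adjusted p = 0.00258), and Hsd17b10, part of the RNase P of the organelle, rose (0.30 ± 0.09 (SE), adjusted p = 0.00682). Of 9 tested regulators 2 rose and 5 fell. Hif1a, the oxygen-regulated factor, had 187 to 224 CPM (median 207) in bleomycin libraries, against 80.5 to 102 CPM (median 92.2) in saline libraries (1.19 ± 0.06 (SE), adjusted p = 3.85e-12), and Gabpb1 rose (0.54 ± 0.07 (SE), adjusted p = 1.9e-06), whereas Gabpa, its DNA-binding partner, fell (-0.25 ± 0.05 (SE), adjusted p = 0.000129). Esrra and Ppargc1b, a nuclear receptor and its coactivator, had -0.63 ± 0.08 (SE), adjusted p = 1.38e-06 and -0.82 ± 0.11 (SE), adjusted p = 4.11e-06, and Myc had -0.94 ± 0.14 (SE), adjusted p = 7.93e-06. Of 7 genes that bypass or switch the chain, 4 rose and 1 fell: beside AA467197, Atpif1, the inhibitor of the ATP synthase, had 53.4 to 101 CPM (median 74.5) in bleomycin libraries, against 33.3 to 48.9 CPM (median 40.9) in saline libraries (0.89 ± 0.11 (SE), adjusted p = 1.12e-06), Ucp2 rose (0.40 ± 0.09 (SE), adjusted p = 0.000895), Slc25a4 rose (0.21 ± 0.08 (SE), adjusted p = 0.0327) and the ADP/ATP carrier Slc25a5 fell (-0.31 ± 0.08 (SE), adjusted p = 0.00322). With library totals the calls were 1 higher and 6 lower for the cytochrome and ubiquinone list, 0 and 10 for mitochondrial DNA expression, 2 and 7 for the regulators and 3 and 2 for the last list, beside the 24.4% and 45.9% over all genes. The rises of Tfam (-0.0246), Ssbp1 (-0.0242), Lrpprc (-0.085) and Slc25a4 (-0.00706) changed sign.

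Promoters of nuclear subunits are known for sites of NRF1 and of ETS factors such as GABPA, and several hold sites of YY1. RefSeq promoters (GRCm38.p6, 250 bases before to 50 after a start site) were matched for 66 of 85 nuclear subunits, within 1000 bases of the 5′ end of the row. On either strand, GCATGCGC (NRF1) was present in 13.6% of these and in 2.71% of the 32817 promoters of the table, CCGGAAG (ETS) in 22.7% and 8.86%, and AAGATGG (YY1) in 15.2% and 6.34%. The 32817 promoters were not limited to expressed genes or to 1 per gene, whereas each subunit has 1. Among 42 promoters of subunits that rose the shares were 16.7%, 28.6% and 19.0% (7, 12 and 8 promoters). Among 22 of subunits tested that did not rise they were 9.09%, 13.6% and 9.09% (2, 3 and 2 promoters). With so few promoters these shares rest on single genes, and the difference was not tested. These are matches of letters and not measured binding. Promoters of the subunit with the largest nuclear rise, of the one with the smallest p and of the pair that moved apart are shown, with those motifs in capitals.
Ndufc1, chr3:51408906-51409205, - strand: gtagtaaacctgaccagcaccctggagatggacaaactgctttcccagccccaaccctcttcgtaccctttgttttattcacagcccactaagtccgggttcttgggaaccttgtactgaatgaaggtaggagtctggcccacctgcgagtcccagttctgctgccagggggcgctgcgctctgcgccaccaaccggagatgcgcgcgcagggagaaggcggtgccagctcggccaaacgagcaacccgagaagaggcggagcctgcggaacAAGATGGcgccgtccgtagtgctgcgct
Sdhb, chr4:140961021-140961320, + strand: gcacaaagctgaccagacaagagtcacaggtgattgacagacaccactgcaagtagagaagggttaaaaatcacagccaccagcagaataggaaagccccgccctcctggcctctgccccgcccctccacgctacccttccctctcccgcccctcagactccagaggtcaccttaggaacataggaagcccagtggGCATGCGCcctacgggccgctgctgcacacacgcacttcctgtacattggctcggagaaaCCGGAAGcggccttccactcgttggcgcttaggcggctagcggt
Cox6b1, chr7:30626065-30626364, - strand: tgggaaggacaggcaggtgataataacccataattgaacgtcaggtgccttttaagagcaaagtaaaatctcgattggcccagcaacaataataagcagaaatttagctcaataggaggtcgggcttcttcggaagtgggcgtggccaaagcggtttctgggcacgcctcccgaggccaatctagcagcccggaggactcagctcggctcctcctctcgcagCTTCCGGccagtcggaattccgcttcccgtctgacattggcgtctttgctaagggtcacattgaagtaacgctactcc
Cox6b2, chr7:4753045-4753344, - strand: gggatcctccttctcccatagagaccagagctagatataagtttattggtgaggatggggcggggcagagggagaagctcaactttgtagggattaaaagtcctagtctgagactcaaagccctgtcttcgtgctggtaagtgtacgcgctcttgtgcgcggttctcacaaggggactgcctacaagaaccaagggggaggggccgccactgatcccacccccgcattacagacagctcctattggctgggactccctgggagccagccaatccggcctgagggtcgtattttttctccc
Ndufc1 holds the YY1 letters, Sdhb those of NRF1 and ETS, Cox6b1 those of ETS on the opposite strand, and none of the 3 motifs is in this window of Cox6b2.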

How the data were processed

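RNA of bronchoalveolar lavage cells was sequenced in 16 libraries, 4 in each of 4 groups of treatment and sex, which were taken from the sample labels. The authors deposited raw read counts per gene and FPKM values (counts divided by gene length and library total) for each library. Per the submitters' processing notes, reads were trimmed with fastp 0.12.2, aligned with HISAT2 2.0.5 and counted with featureCounts 1.5.0-p3, and DESeq2 was used, with no version given. The notes name both mm9 and mm10 without roles, and the strand setting is not given in the sources used here. Of the 85 nuclear subunits, 37 overlap another row, 29 of them a row on the opposite strand. Over 10% of the 100-base windows of 12 nuclear subunits also occur in other annotated transcripts. Coordinates in the deposited count table equal those of GENCODE M21 (GRCm38) for 98.33% of the rows found in both and for 92 of the 98 members. Total counts ranged from 16385784 to 24567609 per library, and counting error is only part of the spread that the tests estimate.

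The deposited counts were fitted with edgeR 4.0.16 in R 4.3.3 (quasi-likelihood F test, TMM scaling, filterByExpr with a minimum count of 10, 1 coefficient per group), with Benjamini-Hochberg adjustment over 15257 genes and a threshold of 0.05. Standard errors are approximate, the size of the log2 fold change divided by the square root of F. The comparisons were bleomycin minus saline in each sex and averaged over the sexes, male minus female in each treatment, and the interaction. The code was tested on simulated data. FPKM values were used only to compare genes per length and as an alternative to CPM in the levels of mitochondrial minus nuclear subunits. Those levels are means of log2(CPM + 1) and carry no test.

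Alternatives were library totals or RLE size factors, no filter on low counts, DESeq2 1.42.0, limma 3.58.1 (voom), fits of the compared groups alone, and leaving out each library or C33, C49 and C50. The authors' deposited tables of comparisons were not used. The genes named are all mitochondrial members, in each complex the 4 nuclear members of smallest p and the one of largest p, tissue-specific isoforms, and the 3 genes of smallest p in each pathway list. Ndufs3, Ndufv1, Ndufv2, Uqcrc1, Uqcrfs1, Uqcr11, Atp5a1, Atp5b, Cox17, Cyc1, Cycs, Tfam, Ssbp1, Lrpprc, Polrmt, Mrpl43, Mrps22, Gabpa, Ppargc1b, Myc, Slc25a4 and Slc25a5 were named in addition, after their values were seen. The members and all lists were chosen with earlier results of these data known.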

Additional observations from a re-analysis of the deposited data

Results flagged for a closer look

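In 9 of 204 groups of 4 libraries, 1 library lay apart from the other 3 by Dixon's criterion (its gap to the nearest other library is most of the range), which chance gives in about 1 of 20 groups. Saline female C74 accounted for 3 of them: mt-Co3 at 54.1 CPM (the others 7.46 to 10.2 CPM), mt-Nd2 at 1078 CPM (880.0 to 905 CPM) and Cox6b2, lowest at 23.8 CPM (28.0 to 28.7 CPM). Saline female C77 was highest for Uqcrc2 (122 CPM, the others 115 to 116 CPM) and for Atp5h (106 CPM, the others 89.9 to 91.9 CPM). Among saline males, C71 was highest for Ndufa7 at 38.2 CPM (30.2 to 30.3 CPM) and lowest for the complex V level of mitochondrial minus nuclear subunits at -3.53 (-3.05 to -3.01), and C72 was highest for Cox4i1 at 263 CPM (244 to 246 CPM). In bleomycin males, C65 was lowest for the same level of complex IV at 1.18 (1.65 to 1.67).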

How the results depend on the processing

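Of 3196 pairs of a result and an alternative, 2926 kept their direction and side of the threshold or their size, 96 counts or values moved, 57 passed the threshold in addition, 113 no longer passed and 4 reversed. With library totals the averaged nuclear count was 29 higher and 10 lower, in males 26 higher and 5 lower, and in females 9 higher and 7 lower, with 5 mitochondrial subunits higher in females. The count of nuclear subunits lower in males was 2 with RLE size factors, with no filter, with DESeq2, without C33, C49 and C50, and in a fit of the compared groups alone. In females it was 2 with RLE, with no filter, with limma voom and with the compared groups alone, and 3 with DESeq2. Nuclear subunits higher in females numbered 52 without C33, C49 and C50 and 16 with the compared groups alone. In the saline comparison of the sexes 1 subunit, Uqcrc2, was called with library totals and with DESeq2. With no filter the 1 called was mt-Co3, for which C74 stood at 54.1 CPM among saline females. Without C33, C49 and C50, 2 were called, Uqcrc2 and Uqcrfs1. In the interaction 1 was called with no filter (mt-Co3). The causes were not tested. Leaving out 1 library at a time gave 43 to 60 nuclear subunits higher averaged over the sexes, 32 to 55 in males and 8 to 49 in females, with 1 to 2 lower in males and 1 to 5 in females, and 0 to 1 called between the sexes in saline. Single members entered these pairs only if they were among 47 named ones. The log2 fold changes that reversed among them were those of mt-Co3 in females without C74 (0.854, and -0.59 to 0.85 over all single libraries left out) and, with library totals, of Sdha (-0.0746), Uqcrc2 (-0.22) and Cox7b (-0.0323) averaged over the sexes. Outside the 47, Atp5a1 (-0.0313), Uqcrc1 (-0.00694) and Ndufs3 (-0.0205) also changed sign with library totals. The averaged mitochondrial minus nuclear difference ran from 0.35 to 0.44 in complex I and 0.21 to 0.33 in complex III when each library was left out. Such ranges are not given here for complexes IV and V, whose spreads within groups were larger (0.29 and 0.40, against 0.18 and 0.21). For complex V no value without the copied mitochondrial genes could be computed. No paired analysis was possible because replicate codes are not shared between groups. mt-Atp8 had too few counts to be tested.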
